A study of Mus musculus with 18 samples.

Results

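The genes described here are 47 genes of the lysosome, the acidic compartment in which macrophages break down what they engulf. A feature of the deposited tables belonged if its name, without its suffix, equalled one of 47 listed symbols. The rule uses no measured value, but the list was drawn up with earlier results of these data known. All 47 were present among the 24732 features of the tables, and all 47 passed the filter on low values described below. They comprise 21 hydrolases (11 glycosidases, 5 sulfatases, 5 lipid or protein hydrolases), 2 activator proteins, 5 membrane proteins, 4 genes of sorting and regulation, and 15 genes of the proton pump (5 of its membrane sector V0, 8 of its cytosolic sector V1, 2 accessory genes).

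Polyadenylated RNA was sequenced from sorted mouse macrophages of the C57BL/6 background, wild-type (Bhlhe40+/+Bhlhe41+/+, WT) or lacking both transcription factors (Bhlhe40-/-Bhlhe41-/-, DKO). Each of 3 sources gave 2 WT and 2 DKO libraries, which the series calls biological replicates. The sources were steady-state lungs and mixed bone marrow chimeras, from both of which alveolar macrophages were taken, and the steady-state peritoneum. Alveolar cells were gated as CD11c+, SiglecF+ and low for CD11b, and in chimeras CD45.1 and CD45.2 told WT from DKO cells. Peritoneal cells were gated on CD11b, F4/80, Tim4 and MHC class II. How many mice a library holds and how the chimera hosts were prepared are not given in the sources used here.

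Lysosomal hydrolases are made in the secretory pathway, tagged with mannose phosphate, sorted by receptors for that tag and delivered to the lysosome. Activator proteins present lipids to them there. A rotary pump, the vacuolar ATPase, acidifies the lumen by coupling ATP hydrolysis in its V1 sector to proton flow through its V0 sector. The transcription factors TFEB and TFE3 switch on many genes of both kinds, and lung macrophages depend on this machinery to degrade surfactant lipid.

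Libraries held 16.51 to 29.34 M (1e6) recovered reads, except that DKO chimera replicate 1 held 6.59 M. Of the 47 genes, 44 had at least 100 reads in every library. Bhlhe40 was lower in every DKO library than in the WT libraries of its source (65.68 to 242.7 against 213.5 to 940.3 TPM over all sources). Bhlhe41 was higher in every DKO library than in the WT libraries of its source. Its TPM was 155.8 and 155.4 in DKO and 86.65 and 77.59 in WT at steady state, and 110.1 and 111.5 against 100.3 and 88.62 in chimeras. In the peritoneum it was 75.42 and 83.22 against 3.677 and 1.905. A value per gene does not show which exons the reads cover. Summed TPM of 10 alveolar macrophage markers was 13100 to 26100 in alveolar and 1100 to 1470 in peritoneal libraries, and that of 9 peritoneal markers 71.6 to 166 and 18300 to 22100. Chil3 made up most of the 10-marker sum in alveolar libraries (8448 to 17360 TPM), and Marco most of it in peritoneal ones (960.2 to 1424 TPM). At steady state Marco had 390.7 and 368.4 TPM in WT and 3615 and 4218 in DKO. Itgax and Fabp5 were also higher in DKO. Siglec5 (562.6 and 595.4 against 298 and 230.6), Car4, Krt79 and Pparg were lower, and Chil3, Ear1 and Ear2 overlapped. In chimeras the alveolar list stood lower in DKO (13100 to 13700 against 16900 to 17300). Chil3 (8448 and 9195 against 12190 and 12340), Ear1, Siglec5, Car4 and Krt79 were lower there, and Marco, Itgax, Fabp5, Ear2 and Pparg higher. In steady-state DKO libraries some other markers stood higher than in WT: the peritoneal list at 125 to 166 against 71.6 to 76.4, 9 lung epithelium genes at 179 to 193 against 86.3 to 136, and 7 neutrophil genes at 80.3 to 104 against 18.1 to 20.1, although 6 of those 7 stayed under 1 TPM in all 12 libraries. Lyz1 made up most of the peritoneal list there, with 114.7 and 155.3 TPM in DKO and 72.35 and 66.28 in WT. Icam2, Cd5l and Timd4 stood higher in DKO too, at up to 7.74 TPM. Alox15, Gata6, Garnl3, Prg4 and Selp stayed under 1 TPM in all alveolar libraries. In chimeras the epithelium genes stood lower in DKO (39.8 to 61.1 against 106 to 134) and 5 dendritic cell genes higher (4.31 to 9.39 against 0.63 to 0.937). The dendritic cell genes stood lower in peritoneal DKO libraries (4.02 to 4.06 against 15.2 to 16.0). Cd209a alone carried this, with 14.54 and 14.12 TPM in WT and 2.626 and 2.251 in DKO. Zbtb46 went the other way (1.204 and 1.008 against 1.391 and 1.632 TPM), and Flt3, Ccr7 and Xcr1 stayed under 1 TPM there. The peritoneal list stood lower in peritoneal DKO libraries too (18300 to 19100 against 21800 to 22100). Gata6 (91.93 and 81.26 against 141.5 and 164.5 TPM), Alox15, Garnl3, Lyz1 and Selp were lower, Cd5l and Prg4 higher, and Icam2 and Timd4 overlapped. The part of these marker differences in the results below was not tested. In bulk RNA fewer cells of a kind and less RNA per cell cannot be told apart.

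More of the 47 lysosomal genes were higher than lower in DKO cells of each source, and at steady state 12 of 21 hydrolases, both activators and 4 of 15 pump genes rose. TPM, a length-corrected abundance scaled to a common sum in each library, was tested as log2(TPM + 1) with limma over 12303 features with at least 1 TPM in at least 2 libraries. An adjusted p (Benjamini-Hochberg) under 0.05 counts as passing. In steady-state alveolar cells 22 genes rose and 5 fell of 47, where 12.2% of all features tested rose and 39.4% fell. The median log2 change was 0.15 for the 47 genes and -0.22 for all features. In chimeras 20 rose and 6 fell, against 13.7% and 13.6% of all features, with medians of 0.20 and 0.01. In peritoneal cells 14 rose and 3 fell, against 6.80% and 16.1%, with medians of 0.05 and -0.09. In fits that each left out 1 of the 12 libraries, 16 to 22 genes rose and 3 to 5 fell at steady state, 13 to 21 and 2 to 6 in chimeras, and 6 to 15 and 1 to 5 in the peritoneum. The chimera count of rises went to 13 without WT replicate 2 or DKO replicate 1 of that source. The peritoneal count went to 7, 8 and 6 without its WT replicate 1, WT replicate 2 and DKO replicate 2. Both DKO libraries were above both WT libraries for 32 genes and below them for 7 at steady state (19.2% and 57.2% of all features), for 30 and 7 in chimeras (31.9% and 30.6%), and for 22 and 12 in the peritoneum (20.4% and 46.4%).

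TPM is a composition, and the median of all features was not at 0. After each library was rescaled by its median of ratios, the medians of all features were 0.00, 0.00 and 0.02, and the genes split into 33 higher and 3 lower at steady state, 19 and 6 in chimeras, and 21 and 1 in the peritoneum. All features then split into 20.4% and 17.9%, 14.3% and 15.1%, and 11.9% and 7.87%. Newly passing as higher at steady state were Gaa, Glb1, Neu1, Lipa, Scarb2, Atp6ap1, Atp6v0a1, Atp6v0d1, Atp6v0d2, Atp6v1g1 and Atp6v1h (0.22 to 0.42), and the falls of Atp6v1d and Manba no longer passed. Newly passing as higher in the peritoneum were Arsa, Asah1, Gla, Hexa, Lamp1, Tpp1 and Atp6v1d (0.23 to 0.43), and the falls of Gm2a and Atp6v1e1 no longer passed. In chimeras the rise of Grn no longer passed (0.23, adjusted p = 0.146). By the authors' deposited table, 36 genes were higher and 3 lower at steady state (20.2% and 17.1% of all features with an adjusted p), 19 and 5 in chimeras (11.9% and 10.4%), and 24 and 3 in the peritoneum (17.1% and 14.8%). There the peritoneal falls of Gm2a (-0.20, adjusted p = 7.63e-07) and Atp6v1e1 (-0.18, adjusted p = 0.00218) passed.

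**Figure D1:**
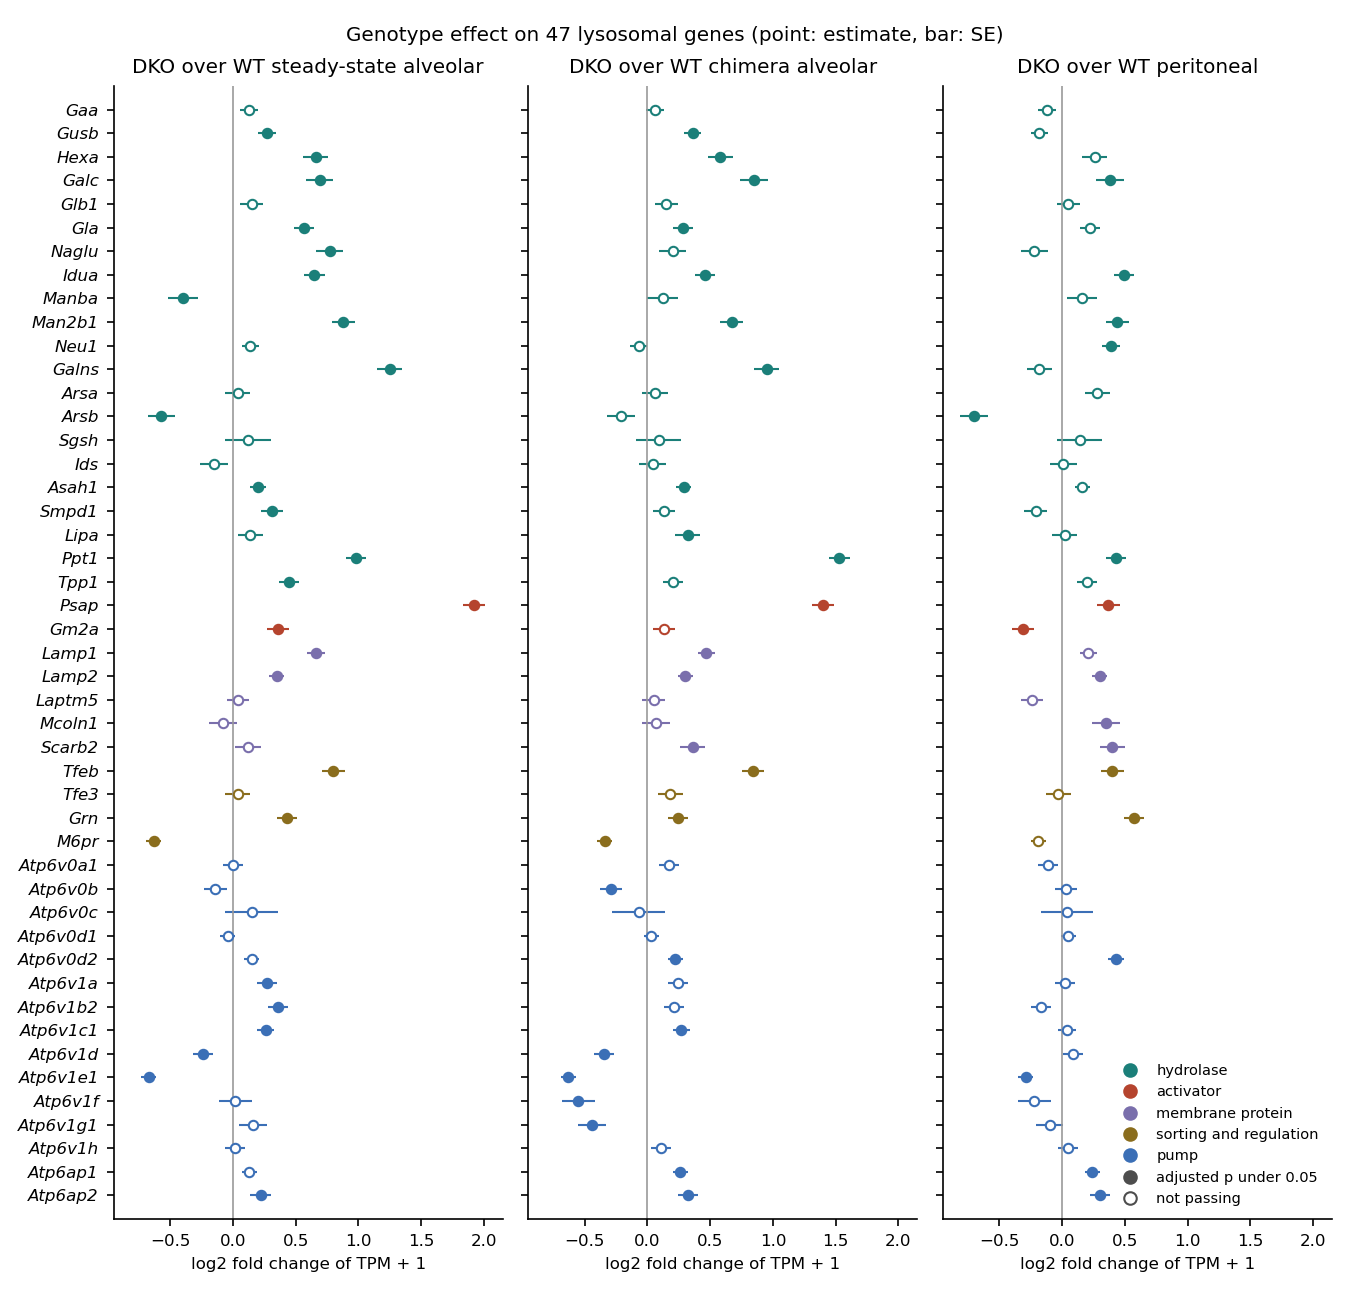
Log2 fold change of TPM + 1 (x axis) of each of the 47 genes (y axis, ordered by role) in the 3 comparisons of DKO with WT, with its SE from limma; filled points pass at adjusted p under 0.05. Hydrolases and activators spread to the right in both alveolar comparisons, up to 1.92 for Psap, while pump genes lie between -0.67 and 0.43 in every comparison.

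Passing in the same direction in all 3 comparisons were 9 genes that rose (Psap, Ppt1, Man2b1, Galc, Idua, Lamp2, Tfeb, Grn and Atp6ap2) and 1 that fell (Atp6v1e1), against 1.86% and 3.28% of all features. After rescaling these counts were 15 and 0 (3.05% and 1.00%). Both alveolar comparisons agreed on 16 genes that rose and 3 that fell (7.27% and 9.63% of all features), or 19 and 2 after rescaling (9.02% and 6.19%). The 3 were Atp6v1e1, Atp6v1d and M6pr. Passing nowhere were 11 genes: Gaa, Glb1, Arsa, Sgsh, Ids, Laptm5, Tfe3, Atp6v0a1, Atp6v0c, Atp6v0d1 and Atp6v1h, against 32.5% of all features. After rescaling they were 6, Sgsh, Ids, Manba, Laptm5, Tfe3 and Atp6v0c, against 41.7%.

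Promoters were read for the sequence CACGTG, a palindrome at the core of the CLEAR element bound by TFEB and TFE3 and also of the E-box bound by BHLHE40. RefSeq windows (GRCm38.p6, 250 bases before to 50 after a gene's start) matched 39 of the 47 genes. CACGTG was in the windows of 11 of the 39 (28.2%), 11.9% of the 9018 tested features that matched and 8.09% of all 27025 genes of the table. They were Arsa, Gaa, Gla, Glb1, Naglu, Sgsh, Lamp1, Mcoln1, Atp6v0b, Atp6v0d1 and Atp6v1a. CACGTG preceded by GT and followed by AC was in none of the 39, and in 0.854% of the tested features. The runs upstream of the start, with CACGTG in capitals, are those of Lamp1 (chr8:13159088-13159160, plus strand), the only one of the 39 with 4 copies, the hydrolases Gla (chrX:134601182-134601244, minus) and Naglu (chr11:101070009-101070038, plus), and the pump gene Atp6v0b (chr4:117887330-117887377, minus).
Lamp1: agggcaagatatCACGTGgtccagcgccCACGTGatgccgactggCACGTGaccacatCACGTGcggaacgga
Gla: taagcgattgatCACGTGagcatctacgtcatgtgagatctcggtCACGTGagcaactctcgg
Naglu: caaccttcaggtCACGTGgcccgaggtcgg
Atp6v0b: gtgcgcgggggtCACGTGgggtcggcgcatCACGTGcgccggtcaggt

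Among the genes with a window, Psap and Ppt1 rose furthest and Atp6v1e1 fell furthest in the alveolar comparisons, and these had no CACGTG in their windows. Galns (1.25 at steady state and 0.95 in chimeras) and M6pr (-0.63 and -0.34) had no matched window, so their promoters were not read. The 150 bases before the start are shown for Ppt1 (chr4:122836077-122836226, plus), for Atp6v1e1 (chr6:120822699-120822848, minus) and for the first of the starts listed for Psap (chr10:60277478-60277627, plus).
Psap: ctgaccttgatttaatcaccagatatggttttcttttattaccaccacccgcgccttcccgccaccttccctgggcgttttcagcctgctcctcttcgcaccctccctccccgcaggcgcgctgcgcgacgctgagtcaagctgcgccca
Ppt1: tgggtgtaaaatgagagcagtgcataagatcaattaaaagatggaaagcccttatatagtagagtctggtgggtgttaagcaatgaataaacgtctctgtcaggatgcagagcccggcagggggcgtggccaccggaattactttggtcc
Atp6v1e1: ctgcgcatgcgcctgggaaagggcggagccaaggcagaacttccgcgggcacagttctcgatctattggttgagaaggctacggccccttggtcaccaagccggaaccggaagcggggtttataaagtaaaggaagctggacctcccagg

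At steady state 4 of the 11 genes with CACGTG rose and 0 fell, with a median log2 change of 0.13, and 14 of the 28 without it rose and 4 fell, with a median of 0.19. In chimeras 2 rose and 1 fell with the motif, and 14 rose and 3 fell without it. In the peritoneum these counts were 1 and 0, and 12 and 3. Over all tested features at steady state, 12.1% rose and 40.7% fell with the motif, and 12.2% and 41.2% without it. The shares were 13.9% and 14.1% with it and 13.7% and 13.8% without it in chimeras, and 8.61% and 16.2% against 6.63% and 16.9% in the peritoneum.

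Among the glycosidases, which strip sugars from glycolipids, glycoproteins and glycosaminoglycans, 7 of 11 rose and 1 fell at steady state, 6 rose and 0 fell in chimeras, and 4 rose and 0 fell in the peritoneum. Their medians were 0.57, 0.28 and 0.22. Counts by role, here and below, are to be read against the shares of all features given above for each comparison. Man2b1, the alpha-mannosidase, had 499.7 and 505.1 TPM in the WT pair and 890 and 962.4 in the DKO pair at steady state. It had 442.3 and 393.6 against 725.5 and 606.7 TPM in chimeras, and 1764 and 1652 against 2267 and 2358 in the peritoneum. Every DKO library was above both WT libraries of its source. The log2 changes were 0.88 ± 0.09 (SE), 0.67 ± 0.09 and 0.44 ± 0.09, with adjusted p = 6.73e-05, 0.000736 and 0.00908. The peritoneal call was lost without WT replicate 2 (0.39, adjusted p = 0.0759) or DKO replicate 2 (0.41, adjusted p = 0.0585).

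Galc, which removes galactose from the myelin lipid galactosylceramide, had 32.87 and 37.83 TPM in the WT pair and 61.65 and 53.82 in the DKO pair at steady state. The chimera values were 28.04 and 25.64 against 52.33 and 46.1, and the peritoneal values 36.54 and 39.98 against 47.16 and 52.78 TPM. The DKO libraries were again the higher ones in each source, by 0.69 ± 0.11, 0.85 ± 0.11 and 0.38 ± 0.11 (adjusted p = 0.000699, 0.000413 and 0.0333 in limma). In the peritoneum the Galc call did not survive leaving out any of the 4 peritoneal libraries (adjusted p = 0.184 and 0.0813 without WT replicates 1 and 2, 0.0597 and 0.183 without DKO replicates 1 and 2). Idua, which cuts iduronic acid from heparan and dermatan sulfate, had 31.61 and 31.37 against 47.39 and 52.4 TPM at steady state. It had 30 and 27.49 against 41.78 and 37.82 TPM in chimeras and 31.83 and 33.34 against 44.93 and 47.61 in the peritoneum. Idua was between 27.49 and 33.34 TPM in WT libraries of all sources and between 37.82 and 52.4 in DKO libraries. Its changes of 0.65 ± 0.08, 0.46 ± 0.08 and 0.49 ± 0.08 passed (adjusted p = 0.000211, 0.00319 and 0.00284) and held under every alternative run.

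Hexa, the alpha chain of beta-hexosaminidase and the most abundant of the 21 hydrolases by mean TPM over the 12 libraries, had 821.9 and 846 TPM in the WT pair and 1224 and 1414 in the DKO pair at steady state, and 880.8 and 814.8 against 1315 and 1217 in chimeras. It rose by 0.66 ± 0.10 and 0.58 ± 0.10 there (adjusted p = 0.000483 and 0.00199). In the peritoneum 1244 and 1137 TPM in WT and 1530 and 1331 in DKO gave 0.26 ± 0.10, which did not pass (adjusted p = 0.0806) and passed after rescaling (0.41, adjusted p = 0.046). Naglu, an enzyme of heparan sulfate breakdown, rose at steady state by 0.77 ± 0.11 (adjusted p = 0.000416), with 0.20 ± 0.11 in chimeras and -0.22 ± 0.11 in the peritoneum, neither passing. Gla, the alpha-galactosidase, rose by 0.57 ± 0.08 and 0.28 ± 0.08 in the alveolar sources, and Gusb, the beta-glucuronidase, by 0.27 ± 0.07 and 0.36 ± 0.07. The sialidase Neu1 rose in the peritoneum (0.39 ± 0.07, adjusted p = 0.0046), and its steady-state change of 0.14 ± 0.07 did not pass (adjusted p = 0.126) but passed after rescaling (0.40, adjusted p = 0.00609). The beta-mannosidase Manba fell at steady state by 0.40 on the log2 scale (adjusted p = 0.0184), a call lost after rescaling (-0.14).

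The sulfatases, which release sulfate from glycosaminoglycans and sulfolipids, were divided. At steady state 1 of 5 rose and 1 fell, in chimeras 1 rose and 0 fell, and in the peritoneum 0 rose and 1 fell. Galns, a sulfatase of keratan and chondroitin sulfate, had 123.4 and 116.9 TPM in the WT pair and 268.7 and 306.1 in the DKO pair at steady state, and 92.15 and 80.4 against 178.9 and 157 in chimeras. In the peritoneum WT had 73.68 and 80.31 and DKO 71.03 and 64.45 TPM, so that the DKO libraries were the higher ones in both alveolar sources and the lower ones in the peritoneum. The changes were 1.25 ± 0.10 and 0.95 ± 0.10 (adjusted p = 1.12e-05 and 0.000128), with -0.18 ± 0.10 in the peritoneum, which did not pass (adjusted p = 0.236). The peritoneal minus steady-state difference of the effect was -1.43 (adjusted p = 8.96e-05, interaction term of the limma fit). Arsb, the sulfatase of dermatan sulfate, fell at steady state (-0.57 ± 0.11) and in the peritoneum (-0.70 ± 0.11), with -0.21 ± 0.11 in chimeras, not passing.

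Sgsh, the sulfamidase of heparan sulfate, was the least abundant hydrolase by mean TPM over the 12 libraries. It had 0.8456 and 1.095 TPM in the WT pair and 1.007 and 1.27 in the DKO pair at steady state and 1.391 and 1.003 against 0.9781 and 1.755 in chimeras, from 12 to 67 reads. The peritoneal values were 38.16 and 38.75 against 38.55 and 46.87 TPM, from 1695 to 2123 reads. WT and DKO libraries overlapped in all 3 sources, and no DKO change passed (0.12 ± 0.18, 0.09 ± 0.18 and 0.14 ± 0.18). Its feature name, like those of Glb1, Arsa, Atp6v0a1 and Atp6v0c, ends in a suffix (IMP_OVL) whose meaning the files do not give. Without these 5 features the counts were 12 higher and 2 lower of 18 hydrolases and 4 and 2 of 13 pump genes at steady state.

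Of the 5 hydrolases of lipids and proteins, 4 rose in steady-state lungs, 3 in chimeras and 1 in the peritoneum, and 0 fell. Ppt1, a thioesterase that removes palmitate from proteins, had 359.3 and 373.2 TPM in the WT pair and 781.5 and 669.5 in the DKO pair at steady state, 327.9 and 316.9 against 973.1 and 900.1 in chimeras, and 163.4 and 154.7 against 216.3 and 211.7 in the peritoneum. DKO libraries were above WT in each source, and the chimera DKO libraries were the highest of all 12. It rose by 0.98 ± 0.08, 1.53 ± 0.08 and 0.43 ± 0.08 (adjusted p = 1.13e-05, 1.15e-06 and 0.00466), under every alternative run. The acid ceramidase Asah1 rose by 0.20 ± 0.06 and 0.29 ± 0.06 in the alveolar sources, and the acid sphingomyelinase Smpd1 by 0.31 ± 0.09 and the peptidase Tpp1 by 0.45 ± 0.08 at steady state. The acid lipase Lipa rose in chimeras by 0.32 ± 0.10 (adjusted p = 0.0314).

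Psap changed more than any other of the 47 genes at steady state. It encodes prosaposin, the precursor that is cut into saposins, small proteins that lift sphingolipids out of membranes for the hydrolases. It had 6923 and 6771 TPM in the WT pair and 25030 and 26810 in the DKO pair at steady state, 8294 and 8467 against 23330 and 21080 in chimeras, and 4303 and 4239 against 5329 and 5756 in the peritoneum. The 4 alveolar DKO libraries stood above the other 8, and the peritoneal groups did not overlap either. Psap rose by 1.92 ± 0.09, 1.4 ± 0.09 and 0.37 ± 0.09 (adjusted p = 2.15e-07, 3.88e-06 and 0.0133). The peritoneal call was lost without WT replicate 1 or 2 (adjusted p = 0.0607 and 0.0843), without DKO replicate 2 (0.32, adjusted p = 0.106) and without the filter on low values (adjusted p = 0.145).

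In rank by TPM among all features, Psap moved from 9 in both WT steady-state libraries to 2 and 3 in DKO, from 8 to 2 in both chimera pairs, and from 22 and 23 to 18 and 11 in the peritoneum. Its share of all TPM was 0.677% to 0.692% in WT and 2.50% to 2.68% in DKO steady-state libraries, and it made up 25.9% to 26.3% and 52.1% to 53.7% of the summed TPM of the 47 genes. The 47 genes together held 2.62% to 2.64% of TPM in WT and 4.8% to 5.0% in DKO at steady state, 2.68% to 2.76% and 4.19% to 4.54% in chimeras, and 2.48% to 2.49% and 2.83% in both peritoneal DKO libraries. The other activator, Gm2a, which presents a ganglioside to beta-hexosaminidase, rose at steady state (0.36 ± 0.09, adjusted p = 0.00764) and fell in the peritoneum (-0.31 ± 0.09, adjusted p = 0.0307); the fall did not pass after rescaling (-0.17).

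**Figure D2:**
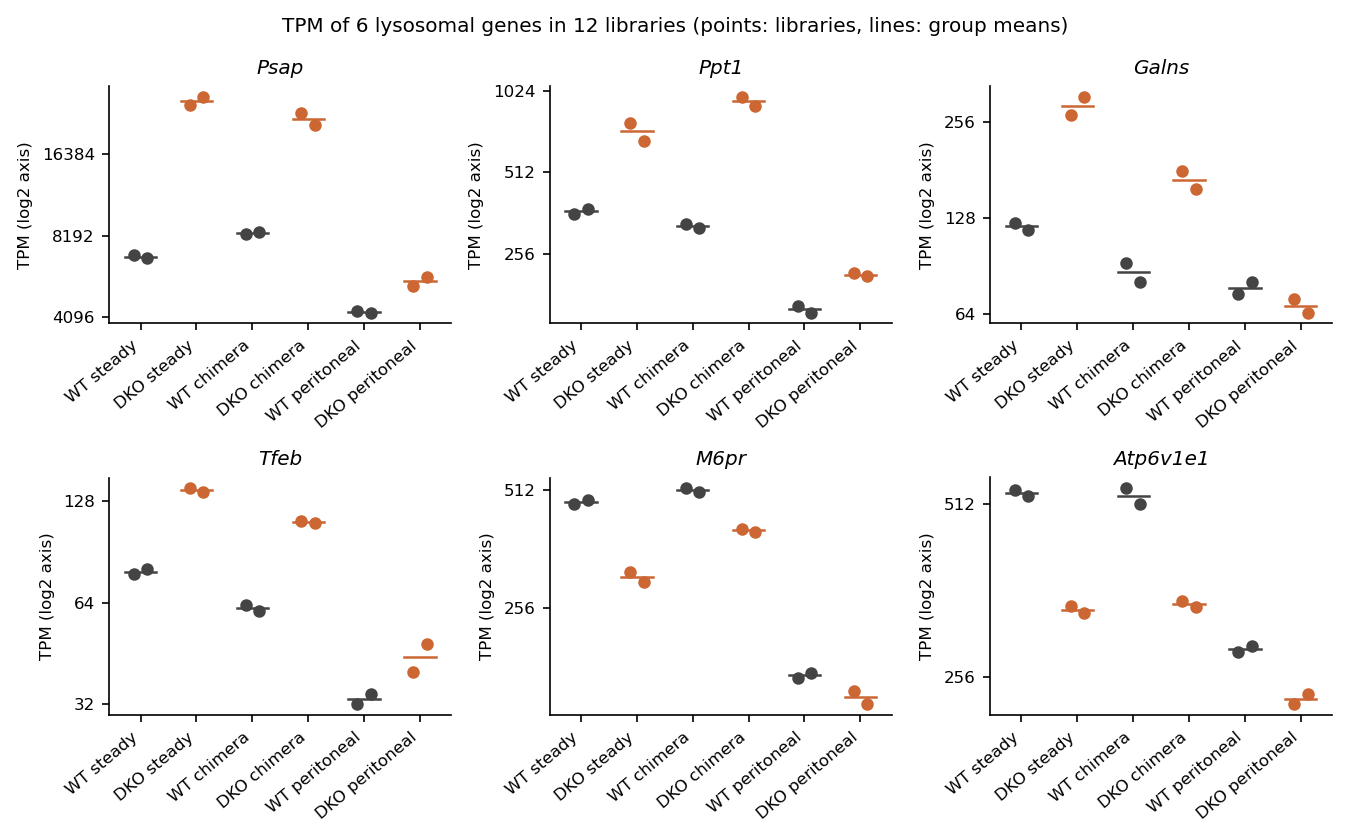
TPM on a log2 axis (y axis) of 6 genes in each of the 12 libraries, by group (x axis); points are libraries and lines are means of 2. Psap, Ppt1 and Tfeb are higher in DKO than in WT in every source, Galns in both alveolar sources, and M6pr and Atp6v1e1 are lower in DKO in every source.

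Of the 5 membrane proteins, 2 rose in steady-state lungs, 3 in chimeras and 3 in the peritoneum, and 0 fell. Lamp2, a heavily glycosylated coat protein of the lysosomal membrane, had 278 and 267.9 TPM in the WT pair and 342.4 and 351.6 in the DKO pair at steady state, 248.9 and 245.7 against 308.2 and 300.5 in chimeras, and 362.6 and 338.8 against 432.7 and 430.2 in the peritoneum. The DKO pair was the higher one in each source, by 0.35 ± 0.06, 0.30 ± 0.06 and 0.30 ± 0.06 (adjusted p = 0.000929, 0.0042 and 0.00533 in limma), the last lost without WT replicate 2 (0.25, adjusted p = 0.0574). Its relative Lamp1, whose promoter run above holds 4 copies of CACGTG, rose by 0.66 ± 0.07 and 0.47 ± 0.07 in the alveolar sources, with 0.21 ± 0.07 in the peritoneum, not passing (adjusted p = 0.0585) but passing after rescaling (0.35, adjusted p = 0.0299). Scarb2, the carrier of glucocerebrosidase, rose in chimeras and the peritoneum by 0.36 ± 0.10 and 0.40 ± 0.10. The calcium channel Mcoln1 rose in the peritoneum by 0.35 ± 0.11 (adjusted p = 0.0436). Laptm5, the most abundant of the 5 at 4329 to 5800 TPM, passed in none.

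Among the genes of regulation and sorting, Tfeb, the master regulator of lysosomal genes, had 77.64 and 80.6 TPM in the WT pair and 140.1 and 136.9 in the DKO pair at steady state. It had 63.11 and 60.3 against 112.1 and 110.5 TPM in chimeras and 31.89 and 34.16 against 39.77 and 48.15 in the peritoneum. Tfeb was higher in DKO in each source, by 0.80 ± 0.09, 0.84 ± 0.09 and 0.40 ± 0.09 (adjusted p = 7.4e-05, 0.000107 and 0.00984). The peritoneal call was lost without WT replicate 1 (0.35, adjusted p = 0.0747) or DKO replicate 2 (0.26, adjusted p = 0.061). Its relative Tfe3 had 64.71 and 69.85 TPM in the WT pair and 63.69 and 75.02 in the DKO pair at steady state, 56.2 and 52.72 against 63.25 and 60.78 in chimeras, and 110.2 and 100.1 against 96.19 and 109.8 in the peritoneum. WT and DKO overlapped at steady state and in the peritoneum but not in chimeras. The Tfe3 changes of 0.04 ± 0.10, 0.18 ± 0.10 and -0.03 ± 0.10 did not pass (adjusted p = 0.772, 0.198 and 0.886).

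Grn encodes progranulin, which is secreted and also carried to the lysosome, where it is cut into granulins. It had 1509 and 1474 TPM in the WT pair and 1903 and 2134 in the DKO pair at steady state, 1506 and 1480 against 1843 and 1681 in chimeras, and 3919 and 3728 against 5728 and 5606 in the peritoneum. The peritoneal DKO libraries were the highest of the 12. Grn rose by 0.43 ± 0.08, 0.24 ± 0.08 and 0.57 ± 0.08 (adjusted p = 0.00147, 0.048 and 0.00101), and its chimera call held under 5 of 21 alternatives, with adjusted p between 0.0286 and 0.207.

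M6pr, the smaller of the receptors that sort tagged hydrolases, went the other way. It had 470 and 483.2 TPM in the WT pair and 316.3 and 298.2 in the DKO pair at steady state, 516.6 and 506.4 against 406.5 and 400.9 in chimeras, and 170.4 and 175.5 against 157.6 and 145.8 in the peritoneum. The DKO pair was the lower one in each source. M6pr fell at steady state (-0.63 ± 0.06, adjusted p = 3.45e-05) and in chimeras (-0.34 ± 0.06, adjusted p = 0.00287), with -0.19 ± 0.06 in the peritoneum (adjusted p = 0.051). That last value passed without DKO steady-state replicate 1 or 2 (adjusted p = 0.0363 and 0.0362) and was -0.04 after rescaling.

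M6pr lies on chromosome 6 between the targeted genes, 73 features from Bhlhe40 and 130 from Bhlhe41 in the order of GRCm38.p6, and so does the pump gene Atp6v1e1, 67 and 136 features away. Of the 202 tested features between the targeted genes, 14.9% rose and 48.5% fell at steady state, with a median of -0.32. In chimeras 18.8% rose and 19.3% fell, and in the peritoneum 8.91% and 24.8%. The part of this position in the values of M6pr and Atp6v1e1 was not tested.

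Of the 15 pump genes 4 rose and 2 fell at steady state, 4 rose and 5 fell in chimeras, and 3 rose and 1 fell in the peritoneum. The 21 hydrolases split into 12 and 2, 10 and 0, and 5 and 1. Of all features 12.2% rose and 39.4% fell at steady state, 13.7% and 13.6% in chimeras, and 6.80% and 16.1% in the peritoneum. For the pump genes and the hydrolases the median log2 changes follow in the same order of sources. The pump medians were 0.13, 0.11 and 0.04, against 0.27, 0.20 and 0.16 for the 21 hydrolases. After rescaling 10 pump genes rose and 1 fell at steady state, 4 rose and 5 fell in chimeras, and 4 rose and 0 fell in the peritoneum. The hydrolases then split into 16 and 1, 10 and 0, and 10 and 1. All features split into 20.4% and 17.9%, 14.3% and 15.1%, and 11.9% and 7.87%.

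Atp6v1e1, a subunit of the outer stalk that holds V1 to V0, was the only one of the 47 genes to fall in all 3 comparisons. It had 541.8 and 529.4 TPM in the WT pair and 340.3 and 330.7 in the DKO pair at steady state, 546 and 513.6 against 346.6 and 338.6 in chimeras, and 283.5 and 289.6 against 229.5 and 238.7 in the peritoneum. WT and DKO did not overlap in any source, and the DKO libraries of both alveolar sources were within 330.7 to 346.6. It fell by 0.67, 0.63 and 0.29 on the log2 scale, each ± 0.06 (adjusted p = 1.58e-05, 4.84e-05 and 0.00616). The peritoneal fall was lost after rescaling (-0.15, adjusted p = 0.153) and without WT replicate 2 (-0.28, adjusted p = 0.0531).

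The other V1 genes differed among themselves. At steady state the catalytic subunit Atp6v1a (0.27 ± 0.08), its partner Atp6v1b2 (0.36 ± 0.08) and Atp6v1c1 of the stalk (0.26 ± 0.07) rose. The rotor gene Atp6v1d fell at steady state (-0.24 ± 0.08), where its sign turned after rescaling (0.02), and in chimeras (-0.35 ± 0.08). In chimeras Atp6v1f (-0.55 ± 0.13) and Atp6v1g1 (-0.44 ± 0.11) fell as well. For Atp6v1f the chimera values were 848.4 and 931 TPM in WT and 514 and 718.4 in DKO, and the lower DKO value was that of the shallow library, replicate 1. Of the 5 V0 genes 0 passed at steady state, or 3 as higher after rescaling, and Atp6v0b, with its 2 copies of CACGTG, fell in chimeras (-0.29 ± 0.09, adjusted p = 0.0343). The chimera values of Atp6v0b were 690.2 and 660.2 TPM in WT and 504.3 and 601.9 in DKO, the lower DKO value again that of replicate 1. By the authors' deposited table this fall did not pass (-0.30, adjusted p = 0.0658).

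The accessory gene Atp6ap2, known as the prorenin receptor and needed for pump assembly, had 197.2 and 189.7 TPM in the WT pair and 239.2 and 213.1 in the DKO pair at steady state, 161.7 and 169.6 against 193 and 220.8 in chimeras, and 61.94 and 63.37 against 77.02 and 77.68 in the peritoneum. DKO exceeded WT in each source, by 0.22 ± 0.08, 0.32 ± 0.08 and 0.30 ± 0.08 (adjusted p = 0.04, 0.0156 and 0.0235). These calls held in 3, 10 and 8 of the 12 fits that each left out 1 library, with adjusted p up to 0.203, 0.0951 and 0.115. In the peritoneum it was lost without any of the 4 peritoneal libraries, and in chimeras without WT replicate 1 or DKO replicate 2. The other accessory gene, Atp6ap1, rose in chimeras (0.26 ± 0.06) and the peritoneum (0.24 ± 0.06).

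The V0 subunit d isoform Atp6v0d2, known from osteoclasts and macrophages, was the most abundant pump gene by mean TPM over the 12 libraries and was close to 0 in the peritoneum. It had 918.5 and 895.9 TPM in the WT pair and 1051 and 959 in the DKO pair at steady state and 842.6 and 840.3 against 1009 and 956.8 in chimeras. The peritoneal WT libraries had 0.06291 and 0.03949 TPM (2 and 1 reads), and the DKO libraries 0.4077 and 0.4195 (11 reads each). The WT read share at steady state was 16500 times that in the peritoneum (95% exact conditional binomial interval 5630 to 79900, counting error only). DKO peritoneal libraries had 8.0 times the read share of WT, with an interval of 2.4 to 41.7. The fitted peritoneal change of 0.43 ± 0.06 (adjusted p = 0.00148) rests on these few reads and was 0.10 with a pseudocount of 5 TPM (adjusted p = 0.276). The steady-state change of 0.15 ± 0.06 did not pass (adjusted p = 0.0783) and passed after rescaling (0.41). The chimera change of 0.22 ± 0.06 passed (adjusted p = 0.0266) and was lost without WT replicate 1 or 2 or DKO replicate 1 (adjusted p = 0.106, 0.106 and 0.145). The partner isoform Atp6v0d1 stayed between 281.9 and 561.9 TPM in all 12 libraries. The ring subunit Atp6v0c carries the suffix IMP_OVL, and whether its low values reflect its expression was not tested. It was the least abundant pump gene by the same mean, with 10 to 52 reads a library. It was listed at 1.482 and 1.452 TPM in the WT pair and 1.949 and 1.556 in the DKO pair at steady state, 2.5 and 4.778 against 3.062 and 3.542 in chimeras, and 0.7524 and 1.031 against 0.8866 and 0.9952 in the peritoneum. Its WT and DKO libraries overlapped in chimeras and in the peritoneum, and no change of it passed.

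WT alveolar and WT peritoneal macrophages differed in how much of each kind they expressed. Of all features, 41.3% were higher and 26.7% lower in WT steady-state alveolar than in WT peritoneal cells. Of the 15 pump genes 14 were higher in alveolar cells and 0 lower, with a median log2 difference of 0.95 against 0.16 for all features, and the difference of Atp6v0c did not pass (0.39 ± 0.21, adjusted p = 0.133). All 8 V1 genes were higher, from 0.74 for Atp6v1a to 1.99 for Atp6v1c1. After rescaling 13 pump genes were higher and 0 lower, against 34.2% and 34.6% of all features, Atp6v0b no longer passing (0.14).

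Of the hydrolases 10 were higher and 9 lower in alveolar cells, with a median of -0.05, or 10 and 6 of 18 with a median of 0.46 without the 3 features that carry the suffix. Lipa (2.01 ± 0.10), Gla (1.72 ± 0.08), Neu1 (1.24 ± 0.07) and Ppt1 (1.2 ± 0.08) were higher in alveolar cells. Sgsh (-4.33 ± 0.18), Glb1 (-2.62 ± 0.09), Man2b1 (-1.76 ± 0.09), Arsa (-1.21 ± 0.10) and Smpd1 (-1.21 ± 0.09) were higher in peritoneal cells. Of these, Sgsh, Glb1 and Arsa carry the suffix, and Sgsh had 30 and 34 reads in the WT steady-state libraries. Tfeb and M6pr were higher in alveolar cells (1.24 ± 0.09 and 1.46 ± 0.06), Grn and Tfe3 in peritoneal cells (-1.36 ± 0.08 and -0.64 ± 0.10). Each tissue has its own set of libraries and its own gate, so tissue, gate and library set cannot be told apart.

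**Figure D3:**
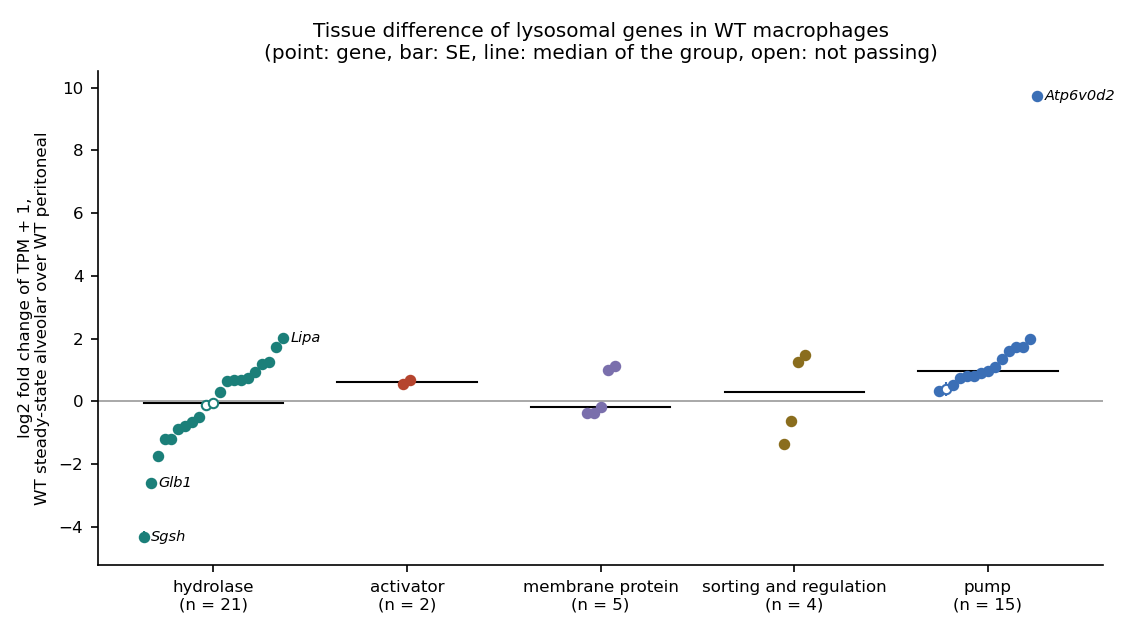
Log2 fold change of TPM + 1 of WT steady-state alveolar over WT peritoneal macrophages (y axis) for each gene, by role (x axis), with SE from limma; black lines are medians and open points did not pass. All 15 pump genes lie above 0, up to 9.75 for Atp6v0d2, while hydrolases run from -4.33 to 2.01, or from -1.76 without the 3 IMP_OVL features.

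Hydrolases and pump were also compared within each library, where a change of scale cancels but for the pseudocount. The summed TPM of the 21 hydrolases over that of the 15 pump genes was 0.793 and 0.805 for the WT pair and 1.05 and 1.14 in the DKO pair at steady state, 0.728 and 0.676 against 1.12 and 1.00 in chimeras, and 2.36 and 2.30 against 2.86 and 2.60 in the peritoneum. Both DKO libraries were above both WT libraries in each source. Such sums lean on abundant genes. In the peritoneum Man2b1 had 1764 and 1652 TPM in WT and 2267 and 2358 in DKO, and Hexa 1244 and 1137 against 1530 and 1331. Both peritoneal DKO libraries were above both WT libraries for 11 of the 21 hydrolases and below them for 6 (20.4% and 46.4% of all features). Atp6v0d2, part of the pump sum, had 840.3 to 1051 TPM in alveolar libraries and under 1 TPM in peritoneal ones. The median log2(TPM + 1) of the hydrolases minus that of the pump genes was -1.53 and -1.43 for WT and -1.50 and -1.32 for DKO at steady state, which overlap. It was -1.81 and -2.25 against -1.04 and -1.28 in chimeras, and 0.17 and 0.44 against 0.87 and 0.51 in the peritoneum, without overlap. In the peritoneum the nearest WT and DKO values (0.44 and 0.51) lay closer together than the replicates of either genotype. No test was made, since an exact permutation test of 2 against 2 libraries cannot give a two-sided p below 0.333 and genes are not replicates.

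**Figure D4:**
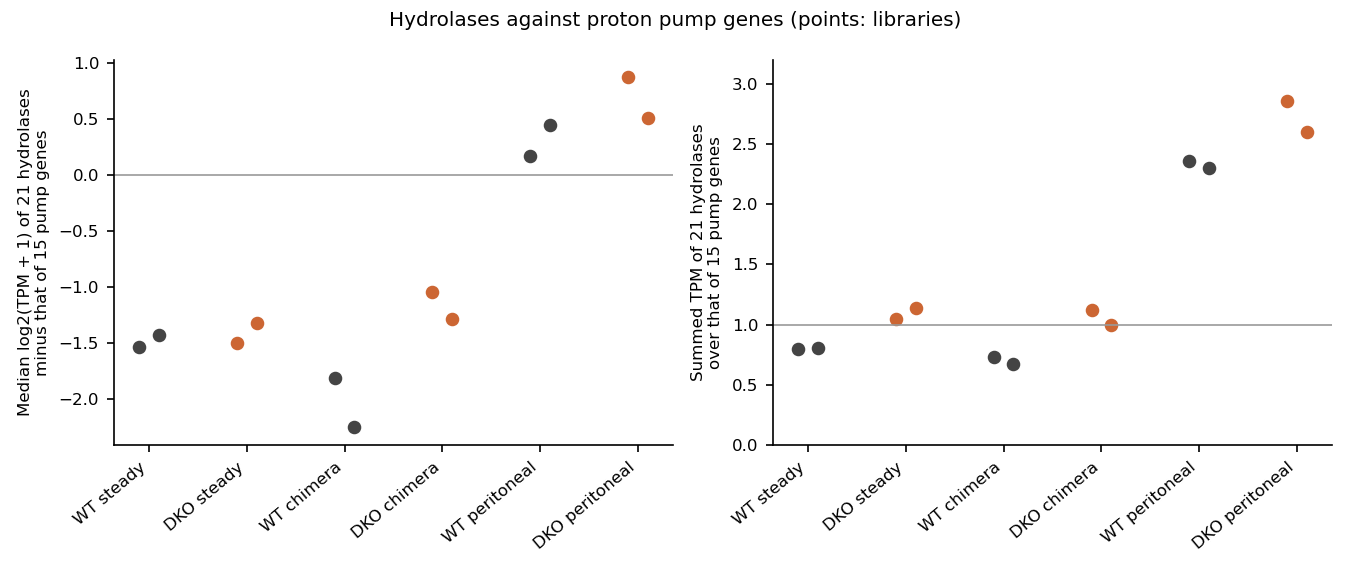
Difference of the median log2(TPM + 1) of 21 hydrolases and 15 pump genes (left y axis) and ratio of their summed TPM (right y axis) in each of 12 libraries, by group (x axis); points are libraries. The ratio of sums is 0.676 to 0.805 in alveolar WT libraries, 1.00 to 1.14 in alveolar DKO libraries and 2.30 to 2.86 in peritoneal ones.

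The genotype effect itself differed between sources for some genes. Peritoneal minus steady-state, 4 of 47 genes had a higher and 12 a lower effect, against 17.3% and 11.0% of all features, and 7 of the 12 were hydrolases. After rescaling 1 was higher and 14 lower (13.6% and 13.8% of all features). Psap (-1.54), Galns (-1.43) and Naglu (-0.99) differed most. Chimera minus steady-state, 3 genes had a higher and 4 a lower effect, against 19.9% and 4.52% of all features, or 0 and 13 after rescaling (6.79% and 10.2%). Psap and Naglu had a smaller effect in chimeras (-0.52 and -0.57, or -0.79 and -0.84 after rescaling). These calls held under 15 and 13 of 20 alternatives, and in 8 and 6 of the 12 fits that each left out 1 library. The larger effect on Ppt1 (0.55, adjusted p = 0.0103) held under 19 of 20 and in all 12 of those fits. It did not pass after rescaling (0.28, adjusted p = 0.0828).

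Lysosomal genes outside the 47 were counted from lists, to be read against the shares of all features given for each comparison. Of 21 other hydrolases and sorting genes, 11 rose and 4 fell at steady state, 10 rose and 1 fell in chimeras, and 11 rose and 1 fell in the peritoneum, or 14 and 1, 10 and 1, and 13 and 0 after rescaling. Igf2r, the larger receptor for mannose phosphate tags and the counterpart of M6pr, had 0.4368 and 0.4055 TPM in the WT pair and 102.3 and 120.4 in the DKO pair at steady state, and 1.421 and 1.398 against 49.77 and 45.87 in chimeras. It rose by 6.30 ± 0.12 and 4.34 ± 0.12 where M6pr fell. Dnase2a, the lysosomal DNase, rose in the peritoneum by 0.72 ± 0.11. Of 15 other membrane proteins tested, 8 rose and 3 fell at steady state, 6 rose and 1 fell in chimeras, and 3 rose and 0 fell in the peritoneum, or 10 and 1, 7 and 1, and 8 and 0 after rescaling. Among them the ion channel Tpcn2 rose by 2.35 ± 0.11 and 1.90 ± 0.11 in the alveolar sources. The metal transporter Slc11a1 rose by 2.74 ± 0.32 at steady state, with unequal DKO libraries (45.29 and 117.1 TPM), and by 1.52 ± 0.32 in chimeras.

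Of 4 other pump subunits tested, 1 rose and 0 fell at steady state, 1 rose and 1 fell in chimeras, and 0 passed in the peritoneum, the same counts as after rescaling. Of 16 regulators, 4 rose and 4 fell at steady state, 5 rose and 4 fell in chimeras, and 3 rose and 3 fell in the peritoneum, or 9 and 0, 5 and 3, and 5 and 2 after rescaling. In the peritoneum Lamtor4, part of the complex that anchors mTORC1 signalling to lysosomes, fell from 400.2 and 421.9 to 210.9 and 223.8 TPM (-0.92 ± 0.10), and Fnip2, a partner of folliculin, rose by 0.80 ± 0.09 (adjusted p = 0.000311).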

How the data were processed

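The 47 genes and all lists were chosen with earlier results of these data known. The authors deposited TPM for 12 RNA-seq libraries in 1 table per source, with a signal column (mean normalized count), and for DKO over WT a log2 fold change, its p-value and that p-value adjusted. Builds mm9 and GRCm38.p3 and the tools TopHat 1.4.1, Bowtie 1.0.0, Bowtie2, DESeq2 1.2.10 and HTSeq 0.5.3 are named without roles in the submitters' processing notes. Whole reads were recovered from TPM and mean normalized count: 100.0% of values came within 0.01 of a whole number. They gave depth and an added alternative, and intervals cover counting error only.

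Here log2(TPM + 1) was tested with limma 3.58.1 in R 4.3.3, as 6 group means over all 12 libraries with an intensity trend and 6 residual degrees of freedom. Tests were two-sided, over 12303 features with at least 1 TPM in at least 2 libraries. Fold changes on this scale understate those of low genes, and p-values measure the spread between 2 libraries a group, pooled. A gene near 0 in a source adds hardly any spread from it. Genes given in every library were those that passed with a log2 change of at least 1, passed alike in all 3 DKO comparisons, differed by at least 1 in an interaction, were the most or least abundant hydrolase or pump gene, or were Tfeb, Tfe3 or M6pr. Other genes are given with fewer values and were chosen after their values were seen. The labels do not say whether same-numbered libraries share a mouse, host or day, and they were not treated as pairs. Promoters came from RefSeq (GRCm38.p6). The ChIP-seq of 6 samples was not used here.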

Additional observations from a re-analysis of the deposited data

Results flagged for a closer look

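For 23 pairs of a gene and a contrast the effect of genotype differed between sources, by an interaction term of the limma fit at adjusted p under 0.05 over all features. Groups held 2 libraries, too few to look for a single library far from its group.

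Peritoneal minus steady-state alveolar, the effect was lower for Psap (-1.54), Galns (-1.43), Naglu (-0.99), Gm2a (-0.67), Ppt1 (-0.55), Atp6v1b2 (-0.53), Smpd1 (-0.52), Lamp1 (-0.45), Gusb (-0.44), Man2b1 (-0.44), Tfeb (-0.40) and Gla (-0.35). It was higher for Atp6v0d2 (0.28), Atp6v1e1 (0.38), M6pr (0.44) and Manba (0.56). Of these 16, 8 held under all 20 alternatives: Psap, Galns, Naglu, Gm2a, Ppt1, Atp6v1b2, Lamp1 and M6pr. Gusb was lost without WT steady-state replicate 2 (adjusted p = 0.0518), and Smpd1 without that library, WT peritoneal replicate 2 or DKO peritoneal replicate 2 (adjusted p = 0.055, 0.0614 and 0.0546). Atp6v1e1 was lost after rescaling (adjusted p = 0.0594). Gla, Man2b1, Tfeb, Manba and Atp6v0d2 held in 3, 5, 5, 5 and 3 of the 12 fits that each left out 1 library, and Atp6v0d2 changed sign with a pseudocount of 5 TPM.

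Chimera minus steady-state alveolar, the effect was lower for Atp6v1g1 (-0.59), Naglu (-0.57), Atp6v1f (-0.57) and Psap (-0.52) and higher for M6pr (0.29), Manba (0.52) and Ppt1 (0.55). Of these 7, 0 held under all 20 alternatives. Ppt1 held under 19, all but rescaling, and Atp6v1g1 and Psap under 15 each. Atp6v1g1, Naglu, Atp6v1f, Psap, M6pr and Manba held in 7, 6, 1, 8, 3 and 1 of the 12 fits that each left out 1 library.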

How the results depend on the processing

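After median-of-ratios rescaling, genes lower at steady state went from 5 to 3 (3 also with only the 4 libraries compared) and in the peritoneum from 3 to 1. The hydrolase and pump medians became 0.53 and 0.31 at steady state, 0.30 and 0.17 in the peritoneum, and -0.23 and 0.77 between WT tissues. For chimera minus steady-state effects, higher calls went from 3 to 0 after rescaling, and to 1 without the intensity trend or with limma-voom on recovered reads, which was chosen after seeing the data. Lower calls there went from 4 to 13 after rescaling, 10 with limma-voom and 1 without a filter, and the hydrolase and pump medians from -0.03 and 0.01 to -0.28 and -0.27 after rescaling and -0.17 and -0.13 with limma-voom. Peritoneal minus steady-state, 4 higher calls became 1 after rescaling and 2 without the trend. The cause was not tested.

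Leaving out 1 library gave 16 to 22 higher and 3 to 5 lower at steady state, 13 to 21 and 2 to 6 in chimeras, 6 to 15 and 1 to 5 in the peritoneum, and 29 to 31 and 13 to 14 between WT tissues. For the differences of effects it gave 1 to 4 and 0 to 3 (chimera) and 2 to 6 and 7 to 13 (peritoneal). Of the libraries compared, lower calls went to 2 in chimeras and to 1 in the peritoneum without WT replicate 2 of that source. Lower calls at steady state fell to 3 without either WT replicate or DKO replicate 2.

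Among the genes given in every library, signs turned for Sgsh, Tfe3, Atp6v0c and Atp6v0d2. Leaving out 1 library gave -0.15 to 0.33 for Sgsh in chimeras, -0.08 to 0.16 for Tfe3 at steady state and -0.13 to 0.06 in the peritoneum (0.11 after rescaling), and -0.43 to 0.30 for Atp6v0c in chimeras and -0.07 to 0.15 in the peritoneum. Atp6v0d2 turned in the peritoneal minus steady-state difference of effects at a pseudocount of 5 TPM (-0.05).

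Deviations of same-numbered libraries correlated at -0.04 in steady-state lungs, 0.13 in chimeras and -0.06 in the peritoneum. With the replicate number as a block, 22 genes were higher and 5 lower at steady state, 19 and 5 in chimeras, 14 and 3 in the peritoneum, and 30 and 14 between WT tissues. Low read counts limit alveolar Sgsh, Atp6v0c and peritoneal Atp6v0d2, the 3 genes with a library under 100 reads.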
